A study of Mus musculus with 36 samples.

Results

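A set of 7 receptors of chemokines and related attractants was followed in microglial cells: Cx3cr1, Cxcr2, Cxcr4, Ccr1, Ccr2, Ccrl2 and Ackr3. They were picked out by symbol, from a list made with earlier results of these data known. They were 7 of the 19879 genes that the deposited tables listed. The cells were BV-2, an immortalized mouse microglial line labelled wild-type, and poly(A) RNA was sequenced in 36 libraries, 3 in each of 12 groups. Cells received the vehicle DMSO, the vehicle EtOH, LPS at 600 ng/mL (bacterial lipopolysaccharide, an activator of microglia), or LPS with 30 µM DMF (dimethyl fumarate), 30 µM MMF (monomethyl fumarate) or 6 µM CBD (cannabidiol), for 4 h or 24 h. Vehicle was at 0.2% in every group, DMSO for DMF and MMF and EtOH for CBD, and serum in the medium was lowered just before treatment. The labels do not say which vehicle the cells with LPS alone received, and no group received a drug without LPS. A line in culture has no neurons, astrocytes or blood leukocytes around it.

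Chemokine receptors are membrane receptors that couple to inhibitory G proteins and steer cells up a gradient of their ligand. In the brain, Cx3cr1 binds fractalkine (Cx3cl1) made by neurons and holds microglia in a surveying state, whereas Ccr2 is known as a receptor of recruited monocytes and Cxcr2 as a receptor of neutrophils. The atypical members Ccrl2 and Ackr3 bind ligand without coupling to G proteins and present or remove it.

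The libraries held from 14110424 to 26676607 counted reads. All 8 general markers of microglia and macrophages (such as Csf1r, Itgam and Cd68) had reads, and their summed level ran from 563 to 911 RPKM (reads scaled to exon length and library size) over the group means. The 5 markers of resident brain microglia with reads reached only 1.06 to 5.11 RPKM together. Of these, Tmem119 and P2ry12 had reads in all 36 libraries and averaged 1.42 and 0.843 RPKM. Siglech, Gpr34 and Olfml3 averaged under 10 reads a library, and Sall1 was not analysed here. The 3 neutrophil markers with reads together reached at most 1.09 RPKM (Ly6g, Mpo and Elane, each under 10 reads a library on average), and 3 T cell markers at most 0.0902 RPKM. In bulk RNA, fewer cells with a transcript and less transcript per cell cannot be told apart.

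Levels are given as scaled reads, which are the reads of a gene in a library divided by 1 factor for that library, with the mean ± SD over 3 libraries. Levels of different genes are compared only as RPKM. On that scale, and over all 36 libraries, Cxcr4 and Cxcr2 averaged 8.72 and 8.06 RPKM, Ccr1 and Ccrl2 6.63 and 6.41 RPKM, and Cx3cr1 2.19 RPKM. Cx3cr1, the receptor by which microglia are usually recognized, was thus the lowest of the 5 well-measured members. Ccr2 averaged 0.0728 RPKM, with 1 to 21 reads in each of the 36 libraries. Ackr3, a scavenger of Cxcl12, had 3 reads in all, 2 in DMSO replicate 4 at 4 h and 1 in LPS with MMF replicate 3 at 24 h, and passed no filter on low counts. A count of 0 allows up to 3 reads in a library, which is 0.112 to 0.213 CPM at these depths (counting error only). In DMSO at 4 h, as an example within 1 group, the order by RPKM was Cxcr4 (8.74 ± 0.597), Cxcr2 (5.23 ± 3.35), Ccr1 (3.41 ± 1.28), Ccrl2 (2.04 ± 0.707) and Cx3cr1 (2.00 ± 0.191), and the libraries of every pair of neighbours in this order overlapped.

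The group means of the well-measured members are given from highest to lowest, each over 3 libraries. Ccrl2 ran, in scaled reads, from LPS with CBD at 24 h (916 ± 160.4), LPS with CBD at 4 h (429.9 ± 107), LPS at 4 h (365 ± 101), LPS with MMF at 4 h (350.1 ± 89.7), LPS with DMF at 24 h (317 ± 54.1), LPS with MMF at 24 h (304 ± 63.3), LPS at 24 h (274 ± 55.2), EtOH at 24 h (105 ± 20.8), DMSO at 24 h (104 ± 36.3), DMSO at 4 h (90.4 ± 31.3), LPS with DMF at 4 h (88.3 ± 30.1) to EtOH at 4 h (65.7 ± 5.49). The libraries of neighbours in this order for Ccrl2 overlapped, except between LPS with CBD at 24 h and LPS with CBD at 4 h, LPS at 24 h and EtOH at 24 h. Its top group stood clear of all others, and all groups without LPS lay in the lower part of the order together with LPS with DMF at 4 h. Cx3cr1 ran, in scaled reads, from LPS at 24 h (288 ± 93.5), LPS at 4 h (282 ± 56.0), LPS with CBD at 4 h (256 ± 44.3), LPS with MMF at 24 h (209.7 ± 90.8), EtOH at 4 h (197 ± 19.6), LPS with DMF at 24 h (190.2 ± 10.0), DMSO at 4 h (158 ± 15.1), LPS with MMF at 4 h (154 ± 40.2), DMSO at 24 h (129 ± 55.7), EtOH at 24 h (116 ± 21.7), LPS with DMF at 4 h (73.5 ± 16.7) to LPS with CBD at 24 h (17.8 ± 12.8). The libraries of neighbours in this order for Cx3cr1 overlapped, except between LPS with DMF at 24 h and DMSO at 4 h, EtOH at 24 h and LPS with DMF at 4 h, LPS with DMF at 4 h and LPS with CBD at 24 h. Cxcr2 ran, in scaled reads, from LPS with DMF at 24 h (917 ± 91.0), LPS with MMF at 24 h (840.3 ± 64.9), DMSO at 24 h (733 ± 62.6), EtOH at 24 h (687 ± 91.4), LPS at 24 h (601 ± 59.3), DMSO at 4 h (269.7 ± 173), EtOH at 4 h (233 ± 158), LPS with MMF at 4 h (178 ± 129.7), LPS with DMF at 4 h (177 ± 141), LPS with CBD at 4 h (173 ± 131), LPS at 4 h (143 ± 124) to LPS with CBD at 24 h (42.3 ± 16.6). The libraries of neighbours in this order for Cxcr2 overlapped, except between LPS at 24 h and DMSO at 4 h. All 5 groups at 24 h other than LPS with CBD lay above every group at 4 h for Cxcr2.

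Cxcr4 ran, in scaled reads, from DMSO at 24 h (479 ± 104), EtOH at 24 h (479 ± 67.0), LPS with DMF at 4 h (393 ± 127), LPS with CBD at 24 h (358 ± 50.4), EtOH at 4 h (329 ± 52.3), DMSO at 4 h (269.7 ± 18.4), LPS with DMF at 24 h (186 ± 22.4), LPS with MMF at 24 h (177 ± 47.8), LPS with MMF at 4 h (170.5 ± 25.2), LPS at 24 h (160.4 ± 52.5), LPS at 4 h (127 ± 21.0) to LPS with CBD at 4 h (102 ± 11.9). The libraries of neighbours in this order for Cxcr4 overlapped, except between EtOH at 4 h and DMSO at 4 h, DMSO at 4 h and LPS with DMF at 24 h. The vehicles at 24 h headed the order for Cxcr4 and LPS alone and LPS with CBD at 4 h closed it. Ccr1 ran, in scaled reads, from LPS with CBD at 24 h (737 ± 28.6), LPS with DMF at 24 h (515 ± 110.5), EtOH at 24 h (453 ± 57.8), DMSO at 24 h (392 ± 69.9), LPS at 24 h (328 ± 67.3), LPS at 4 h (266 ± 71.6), LPS with MMF at 24 h (263 ± 44.5), LPS with CBD at 4 h (254 ± 54.0), EtOH at 4 h (180.2 ± 47.7), DMSO at 4 h (164 ± 61.3), LPS with MMF at 4 h (138 ± 37.6) to LPS with DMF at 4 h (136 ± 70.0). The libraries of neighbours in this order for Ccr1 overlapped, except between LPS with CBD at 24 h and LPS with DMF at 24 h. For Ccr1, 5 of the 6 highest means came from 24 h. Ccr2 had from 1 to 21 reads a library, with its highest mean in LPS at 24 h (17.0 ± 4.12 scaled reads) and its lowest in LPS with DMF at 4 h (3.70 ± 1.76), and its other groups overlapped too widely to order.

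All 7 genes are protein coding, on chromosomes 1 and 9 (GRCm39). Cxcr2 (chr1:74193150-74200405, plus strand), Ackr3 (chr1:90131702-90144473, plus strand) and Cxcr4 (chr1:128515936-128520030, minus strand) lie far apart on chromosome 1. Ccrl2 (chr9:110883554-110886587, minus strand), Cx3cr1 (chr9:119877749-119898945, minus strand), Ccr1 (chr9:123762161-123768729, minus strand) and Ccr2 (chr9:123901987-123913594, plus strand) lie on chromosome 9, where Ccr1 and Ccr2 are 133 kb apart in a cluster of CC receptor genes. Of the 31-base words in the annotated transcripts, 11% of those of Cxcr2, 3.61% of those of Ccr2, 1.67% of those of Cx3cr1, 0.641% of those of Ccr1 and 0.225% of those of Ccrl2 also occur in another gene, and none of those of Cxcr4 and Ackr3. Cx3cr1 shares 78 exon bases with a non-coding gene on the opposite strand, Gm33858, which was not analysed here.

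Promoters are shown for the members with the widest range of group means (Cxcr2, Cx3cr1 and Ccrl2) and for Cxcr4, which with LPS moved against Ccrl2. Each line gives the 250 bases before the RefSeq transcription start (table of build GRCm38.p6, all 7 members found), 5′ to 3′ on the gene's strand. Each window was found once, by exact match, in GRCm39: Ccrl2 at chr9:110886587-110886836, minus strand, Cxcr4 at chr1:128520037-128520286, minus strand, Cx3cr1 at chr9:119897363-119897612, minus strand, Cxcr2 at chr1:74192903-74193152, plus strand. Capitals mark matches of the motifs that were searched.
Ccrl2: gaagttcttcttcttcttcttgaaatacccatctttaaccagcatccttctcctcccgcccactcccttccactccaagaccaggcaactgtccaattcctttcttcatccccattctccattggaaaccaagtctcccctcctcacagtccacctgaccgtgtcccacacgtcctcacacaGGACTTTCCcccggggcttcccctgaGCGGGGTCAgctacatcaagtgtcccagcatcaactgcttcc
Cxcr4: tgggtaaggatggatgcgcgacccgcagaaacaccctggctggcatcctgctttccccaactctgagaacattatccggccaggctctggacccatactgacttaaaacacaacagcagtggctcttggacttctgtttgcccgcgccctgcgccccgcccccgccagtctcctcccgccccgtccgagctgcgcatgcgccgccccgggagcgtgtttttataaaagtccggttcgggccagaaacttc
Cx3cr1: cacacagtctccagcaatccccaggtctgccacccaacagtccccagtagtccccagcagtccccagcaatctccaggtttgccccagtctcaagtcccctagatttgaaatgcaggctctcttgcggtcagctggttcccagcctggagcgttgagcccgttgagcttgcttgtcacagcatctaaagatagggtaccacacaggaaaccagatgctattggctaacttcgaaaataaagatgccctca
Cxcr2: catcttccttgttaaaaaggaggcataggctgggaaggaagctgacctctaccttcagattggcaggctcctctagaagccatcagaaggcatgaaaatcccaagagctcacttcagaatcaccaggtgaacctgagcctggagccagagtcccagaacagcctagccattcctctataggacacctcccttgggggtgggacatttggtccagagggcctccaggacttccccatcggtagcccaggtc

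The motifs, searched on both strands of the windows from 250 bases before to 50 after the start, were GGANTTTCC (kB-type, in 1.25% of all 32851 windows), TGANTCA (AP-1-type, in 7.81% of all 32851 windows), GAGGAAG (PU.1-type, in 13.6% of all 32851 windows), TTCCNGGAA (STAT-type, in 1.15% of all 32851 windows), GAAANNGAA (IRF-type, in 8.56% of all 32851 windows) and TGACNNNGC (antioxidant-response-type, in 12.4%). Of the 7 members, 2 had a match. Ccrl2 held a kB-type match (GGACTTTCC) from -68 to -60, counted from the transcription start. It also held an antioxidant-response-type match on the opposite strand, printed above on the gene's strand as GCGGGGTCA, from -42 to -34. The matches do not overlap, and the 2 other Ccrl2 windows in the table, which begin further into the gene, held none. Ccr2 held an IRF-type match on the opposite strand from -86 to -78. The printed Cx3cr1 window belongs to a start 1583 bases inside the start that GENCODE gives, and which start these cells used was not tested. A match is a run of letters in a window, not a bound site.

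LPS against the vehicles answers how the receptors follow activation of the cells. Ccrl2, an atypical receptor that binds the attractant chemerin, rose at both times, and Cxcr4, the receptor of Cxcl12 and Mif, fell at both times. Cx3cr1 rose against DMSO at both times and against EtOH at 24 h. Against DMSO at 4 h, 2 members rose and 1 fell of 6 tested, where 14.1% of all tested genes were called, and against EtOH at 4 h 1 rose and 1 fell of 6 (10.2% of all). At 24 h, 2 rose and 1 fell of 6 against DMSO (22.7% of all), and 3 rose and 2 fell of 6 against EtOH (20.5% of all). These 4 comparisons share the LPS libraries within a time.

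Ccrl2 stood at 63.2, 125 and 83.4 scaled reads in DMSO and 62.6, 72.0 and 62.4 in EtOH at 4 h, against 314, 481 and 300.0 in LPS. Every LPS library lay above every vehicle library (log2 fold change 2.02 ± 0.27, adjusted p = 0.00205 against DMSO, and log2 fold change 2.43 ± 0.19, adjusted p = 0.000241 against EtOH). The rise was 4.05-fold and 5.38-fold, the largest in size of any member with LPS. At 24 h the LPS libraries held 257, 336 and 229.6, still above 80.1, 145 and 85.5 in DMSO (log2 fold change 1.44 ± 0.22, adjusted p = 0.000927) and 81.7, 111 and 122 in EtOH (log2 fold change 1.39 ± 0.19, adjusted p = 0.000326).

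Cxcr4 went from 269.8, 288 and 251 scaled reads in DMSO and 305, 293 and 389 in EtOH to 145, 104 and 133 in LPS at 4 h. The groups did not overlap (log2 fold change -1.09 ± 0.15, adjusted p = 0.00219 against DMSO, and log2 fold change -1.36 ± 0.16, adjusted p = 0.00170 against EtOH). At 24 h both vehicles were higher, at 479 ± 104 and 479 ± 67.0, and the LPS libraries at 116, 218 and 147 lay below all of them (log2 fold change -1.59 ± 0.22, adjusted p = 0.000459 and log2 fold change -1.60 ± 0.20, adjusted p = 0.000210). The difference between the LPS effects at 24 h and 4 h against DMSO did not pass the test for Cxcr4 (log2 difference -0.50 ± 0.29, adjusted p = 0.319). Nor did it for any other member (0 of 6, where 9.36% of all genes were called by limma, and 0 by edgeR or DESeq2). Ccr1 alone had an unadjusted p under 0.05, and its adjusted p was 0.0386 without DMSO replicate 5 at 4 h. A limma fit with the replicate number as a block called Ccr1 (adjusted p = 0.00432) and Ccrl2 (0.0453), with the share of all genes given at the end. Same-numbered DMSO libraries were not paired over time (lowest correlation 0.0079).

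Cx3cr1 held 157, 173 and 143 scaled reads in DMSO at 4 h and 305, 218 and 323 with LPS (log2 fold change 0.81 ± 0.16, adjusted p = 0.0131). Every LPS library lay above every DMSO library. The call was lost without LPS replicate 3 (log2 fold change 0.71, adjusted p = 0.0650) or DMSO replicate 6 (log2 fold change 0.74, adjusted p = 0.0648). With all 36 libraries in 1 fit the adjusted p was 0.0877. Over all genes, 14.1% were called in the main fit, 6.53% without that LPS library and 5.86% without that DMSO library. In EtOH at 4 h the values were 175, 203 and 212, all below those of LPS, but the difference missed the threshold (log2 fold change 0.50 ± 0.16, adjusted p = 0.0892), and passed it without LPS replicate 2 (adjusted p = 0.0108) or by DESeq2 (0.0396). At 24 h the LPS libraries held 186, 370.1 and 309, above 65.3, 155 and 167 in DMSO (log2 fold change 1.22 ± 0.33, adjusted p = 0.0223) and 92.8, 136 and 118 in EtOH (log2 fold change 1.28 ± 0.23, adjusted p = 0.00230). Against DMSO at 24 h the adjusted p was 0.0935 without LPS replicate 3 and 0.0683 by DESeq2.

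Ccr1, a receptor of Ccl3, Ccl5 and Ccl9, differed from its vehicles in 1 of these 4 comparisons, with 328 ± 67.3 scaled reads in LPS and 453 ± 57.8 in EtOH at 24 h (log2 fold change -0.47 ± 0.15, adjusted p = 0.0488). That fall was lost when any of 5 libraries was left out (LPS replicates 1 and 3 and the 3 EtOH replicates), with adjusted p from 0.0563 to 0.180, by edgeR (adjusted p = 0.0513) and with all 36 libraries in 1 fit (0.252). At 4 h Ccr1 held 266 ± 71.6 in LPS against 164 ± 61.3 in DMSO and 180.2 ± 47.7 in EtOH, with overlapping libraries (adjusted p = 0.140 and 0.222). Ccr2, the receptor of Ccl2 and Ccl7, had 12, 20 and 21 reads in LPS at 24 h, 4, 8 and 7 in DMSO and 2, 11 and 4 in EtOH. It was called against EtOH (log2 fold change 1.91 ± 0.62, adjusted p = 0.0481) and not against DMSO (log2 fold change 1.14 ± 0.40, adjusted p = 0.0619). The call against EtOH was lost on leaving out any library but EtOH replicate 5 (log2 fold change 2.68 without that one), with adjusted p from 0.0646 to 0.141, and without the filter on low values (0.0510). Against DMSO edgeR called it (adjusted p = 0.0490), and counts this low set no firm order of the groups.

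**Figure D1:**
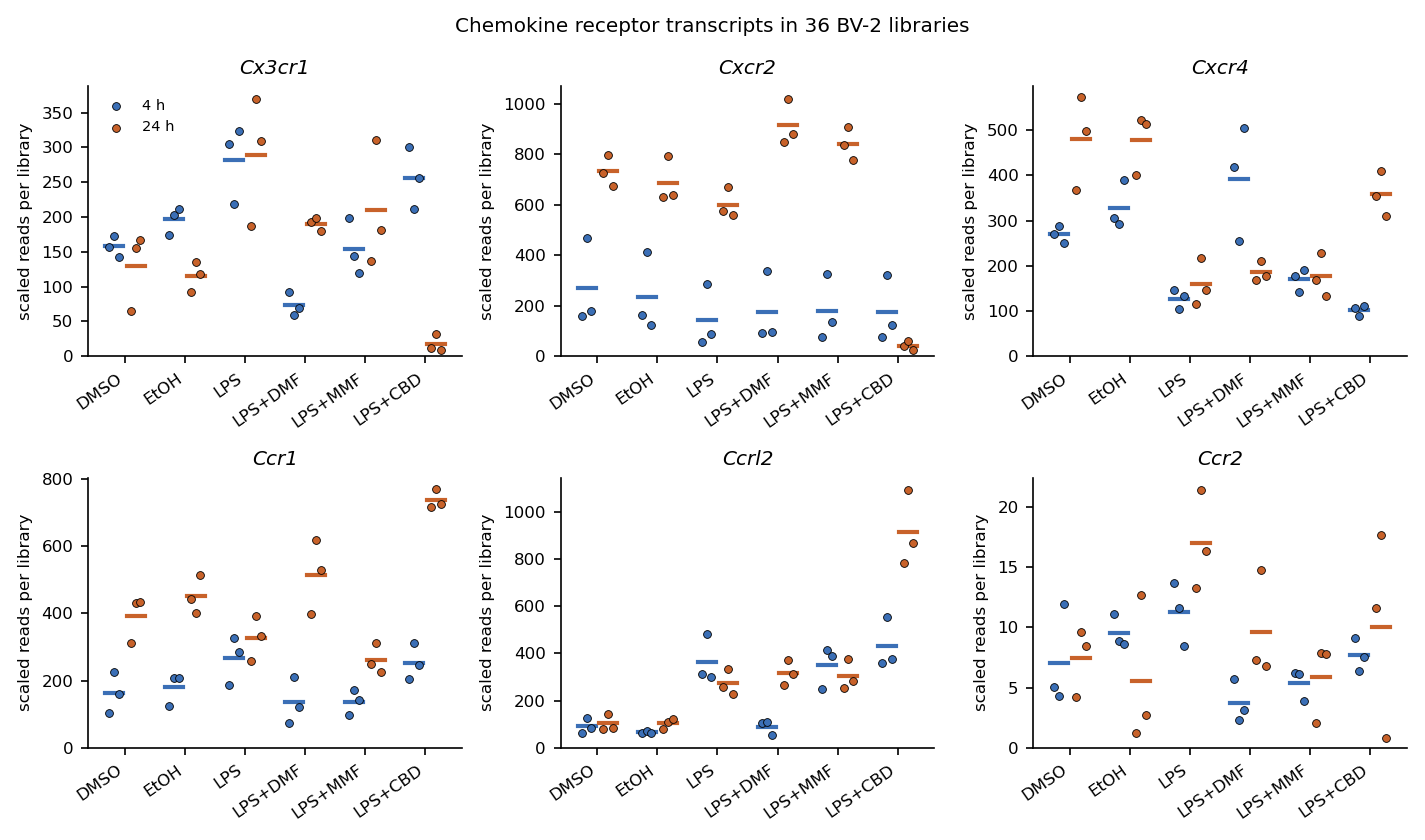
Scaled reads of 6 receptors (y axis, from 0) in each of the 36 libraries, by treatment (x axis). Points are libraries, bars are means of 3, blue is 4 h and orange is 24 h. Ccrl2 rose to 916 with LPS and CBD at 24 h, while Cx3cr1 and Cxcr2 had their lowest means, 17.8 and 42.3, in that group.

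Cxcr2, a receptor of Cxcl2, Cxcl3 and related CXC chemokines, had 1 library per group far above the other 2 at 4 h. At 4 h its scaled reads were 159, 469 and 181 in DMSO replicates 4, 5 and 6, 163, 414 and 123 in EtOH, and 54.8, 285 and 90.1 in LPS replicates 1, 2 and 3. Replicate 2 or 5 was the highest library in 12 of 12 groups for Cxcr2, in 11 of 12 for Ccrl2, 10 of 12 for Ccr1, 7 of 12 for Cxcr4 and 6 of 12 for Cx3cr1 and Ccr2. With LPS, Cxcr2 did not pass the test at 4 h (log2 fold change -1.08 ± 0.59, adjusted p = 0.253 against DMSO, and log2 fold change -0.84 ± 0.62, adjusted p = 0.445 against EtOH) or at 24 h (log2 fold change -0.27 ± 0.10, adjusted p = 0.0755 and log2 fold change -0.18 ± 0.11, adjusted p = 0.303). Without replicates 2 and 5, a choice made after these values were seen and by the level of this gene, the log2 fold change at 4 h was -1.26 against DMSO and -1.0 against EtOH. Without LPS replicate 2 alone, the log2 fold change against DMSO was -1.75 at 4 h and -0.36 at 24 h, and the adjusted p was 0.0282 at 4 h and 0.0201 at 24 h. That refit drops the highest LPS library and keeps the highest DMSO library, replicate 5, which favours a larger fall. The labels do not say what libraries with 1 number share, and the vehicle and LPS groups have no number in common.

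**Figure D2:**
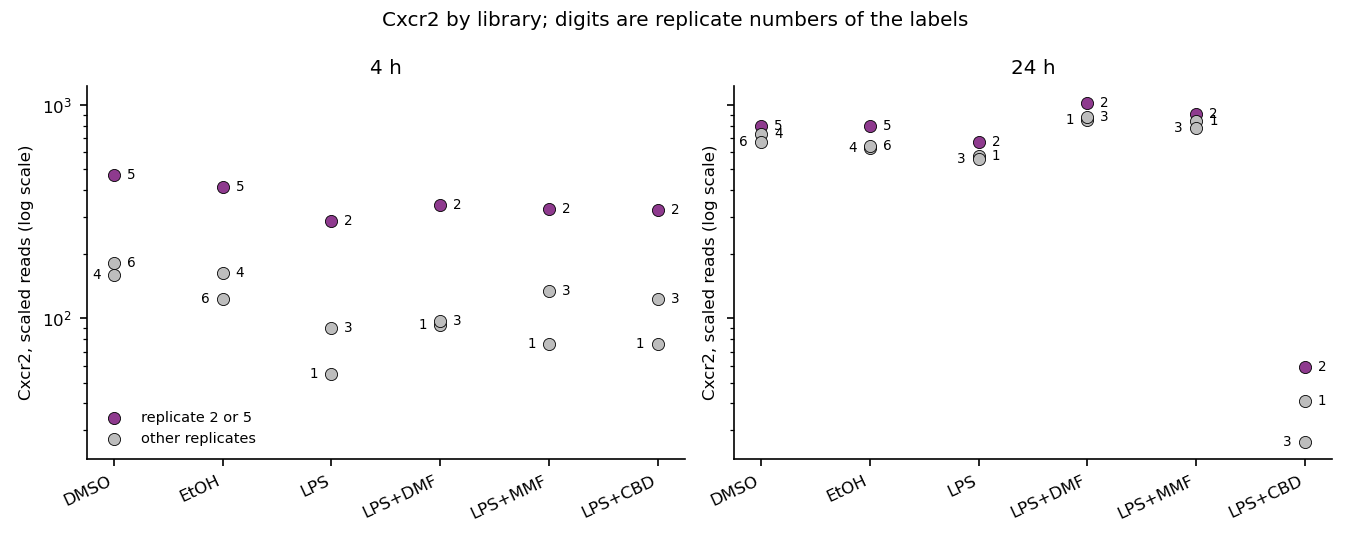
Scaled reads of Cxcr2 (y axis, log scale) in each library at 4 h (left) and 24 h (right) by treatment (x axis), with the replicate number of the labels beside each point. Purple points, replicates 2 and 5, are the highest of their group in 12 of 12 groups.

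The drugs given with LPS were compared with LPS alone at the same time. With no group given a drug without LPS, an altered response to LPS and a separate effect of the drug cannot be told apart. A difference in vehicle cannot be told apart from them either, as the vehicle of the cells with LPS alone is not labelled. At 4 h DMF moved Cx3cr1 and Ccrl2 down and Cxcr4 up (1 rose and 2 fell of 5 tested, where 11.1% of all genes were called). MMF moved none of 5 past the threshold by limma (0.122% of all genes), while DESeq2 called 2 (0.402% of all genes) and edgeR 0. CBD moved none of 5 (0.00875% of all genes, and 0 by edgeR or DESeq2). An unadjusted p under 0.05 was found for 3 of 5 with MMF and 0 of 5 with CBD. The share of all genes at that unadjusted threshold is not given here, so counts at it, in any paragraph, cannot be set against it. DMF and MMF were given at the same dose, whereas CBD was given at another, so its values stand beside theirs without a comparison.

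Ccrl2 held 103, 108 and 53.6 scaled reads with LPS and DMF at 4 h, against 314, 481 and 300.0 with LPS alone. It fell 4.20-fold (log2 fold change -2.07 ± 0.28, adjusted p = 0.00210), to libraries that overlapped those of DMSO (88.3 ± 30.1 against 90.4 ± 31.3, adjusted p = 0.923). With MMF its libraries overlapped those of LPS alone, at 248, 415 and 388 (log2 fold change -0.056 ± 0.23, adjusted p = 0.982), and with CBD it held 359, 553 and 378 (log2 fold change 0.25 ± 0.21, adjusted p = 0.994). Against MMF directly, Ccrl2 with DMF was 4.03-fold lower (log2 fold change -2.01 ± 0.28, adjusted p = 0.00310, 95% interval -2.64 to -1.39).

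Cx3cr1 fell 3.82-fold with DMF at 4 h, from 305, 218 and 323 to 91.9, 59.1 and 69.4 scaled reads (log2 fold change -1.93 ± 0.21, adjusted p = 0.000646). The libraries with DMF lay below those of DMSO as well (log2 fold change -1.12 ± 0.19, adjusted p = 0.00292). With MMF the 3 libraries held 198, 144 and 120.2, all below LPS alone, but the difference did not pass the threshold (log2 fold change -0.87 ± 0.21, adjusted p = 0.344), which it did by DESeq2 (adjusted p = 0.0145) or without LPS replicate 2 (0.0449). DMF and MMF differed from each other (log2 fold change -1.06 ± 0.23, adjusted p = 0.0190, 95% interval -1.56 to -0.55), and this call was lost without DMF replicate 3 (adjusted p = 0.0782), MMF replicate 1 (0.0753) or MMF replicate 2 (0.0544). With CBD at 4 h Cx3cr1 held 301, 212 and 256 (log2 fold change -0.12 ± 0.18, adjusted p = 0.994).

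Cxcr4 rose 2.97-fold with DMF at 4 h, from 145, 104 and 133 to 417, 255 and 506 scaled reads (log2 fold change 1.57 ± 0.24, adjusted p = 0.00333). Against DMSO the group was not called (log2 fold change 0.48 ± 0.21, adjusted p = 0.133), and it was without DMF replicate 2 (adjusted p = 0.00357) or by DESeq2 (0.0471). MMF gave 177, 143 and 192 (log2 fold change 0.42 ± 0.17, adjusted p = 0.640) and CBD 106, 88.4 and 111 (log2 fold change -0.31 ± 0.17, adjusted p = 0.994). DMF and MMF differed (log2 fold change 1.15 ± 0.23, adjusted p = 0.0133, 95% interval 0.65 to 1.65), with an adjusted p of 0.0613 without DMF replicate 3. So of 5 members compared between DMF and MMF at 4 h, 1 was higher and 2 were lower with DMF (8.34% of all genes called). The 2 not called had 95% intervals of -0.88 to 0.64 for Ccr1 and -1.28 to 1.19 for Cxcr2 on the log2 scale, which leave room for differences of the size seen in Cx3cr1 in the case of Cxcr2.

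Ccr1 at 4 h held 73.7, 212 and 122 scaled reads with DMF and 97.7, 172 and 143 with MMF, against 187, 326 and 285 with LPS alone. Neither passed the threshold (log2 fold change -1.06 ± 0.35, adjusted p = 0.0947 for DMF, and log2 fold change -0.94 ± 0.25, adjusted p = 0.418 for MMF), and DESeq2 called both (adjusted p = 0.0264 and 0.0231). Libraries with 1 number deviated together in DMF and LPS at 4 h, and in a fit with that number as a block (blocked fit) the fall with DMF passed (adjusted p = 0.00434), as it did without DMF replicate 2 (adjusted p = 0.0106). Cxcr2 at 4 h was not called with any drug, with log2 fold changes of 0.37 ± 0.63 for DMF, 0.41 ± 0.61 for MMF and 0.37 ± 0.64 for CBD. Against DMSO its level with DMF was called without DMF replicate 2 (adjusted p = 0.0270), a refit that kept the high DMSO replicate 5. Ccr2 had 5, 2 and 3 reads with DMF, 6, 6 and 4 with MMF and 9, 6 and 7 with CBD, and was not tested there.

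With CBD against LPS alone at 24 h, 3 members rose and 2 fell of 6 tested, in a comparison where 48.7% of all genes were called. With DMF 2 rose and none fell of 6 (25.1% of all genes). With MMF none of 6 passed by limma (0% of all genes), 1 by DESeq2 (0.121% of all genes) and 0 by edgeR. An unadjusted p under 0.05 was found for 2 of 6 with MMF, with no share of all genes at that threshold given here.

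Cx3cr1 held 186, 370.1 and 309 scaled reads with LPS at 24 h and 11.6, 32.5 and 9.36 with LPS and CBD (log2 fold change -4.09 ± 0.42, adjusted p = 6.66e-05). Its libraries with CBD also lay below those of EtOH, 92.8, 136 and 118 (log2 fold change -2.82 ± 0.40, adjusted p = 0.000284), so that the group was the lowest of all 12 for this gene, and the highest mean was 16.2 times the lowest. Without CBD replicate 2, the highest of its group, that ratio was 27.5 and the mean with CBD 10.5. Cxcr2 held 41.1, 59.4 and 26.4 against 574, 669 and 559.5 with LPS alone (log2 fold change -3.86 ± 0.25, adjusted p = 6.10e-06) and 629, 793 and 639.6 with EtOH (log2 fold change -4.05 ± 0.25, adjusted p = 2.26e-06). Against LPS alone the fall of Cxcr2 was 14.5-fold. Over all 12 groups its highest mean, in LPS with DMF at 24 h, was 21.7 times its lowest, that with CBD, which gives a range and not a comparison of the drugs. In the opposite direction, Ccrl2 rose 3.35-fold, from 257, 336 and 229.6 to 783, 1094 and 870.0 (log2 fold change 1.75 ± 0.16, adjusted p = 3.79e-05). Ccr1 rose 2.29-fold, from 258, 393 and 332 to 717, 769.9 and 725 (log2 fold change 1.19 ± 0.14, adjusted p = 0.000136), and Cxcr4 2.30-fold, from 116, 218 and 147 to 355, 410.5 and 309.9 (log2 fold change 1.20 ± 0.21, adjusted p = 0.00133). Each of these 5 changes kept its call on leaving out any 1 of the 6 libraries. The mitochondrial share of reads was 1.4, 1.25 and 1.33% in the CBD libraries at 24 h, 1.44% in LPS replicate 1 at 24 h and 1.83 to 2.32% in the other 32 libraries, and its part in the changes with CBD at 24 h was not tested. Cxcr4 with CBD lay below EtOH at 24 h (log2 fold change -0.41 ± 0.14, adjusted p = 0.0335), a call lost without CBD replicate 1 or 3 or EtOH replicate 5 or 6 (adjusted p from 0.0834 to 0.122) or with all 36 libraries in 1 fit (0.115). Ccr2 had 11, 19 and 1 reads with CBD at 24 h against 12, 20 and 21 with LPS (log2 fold change -1.23 ± 0.75, adjusted p = 0.202).

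DMF at 24 h raised Cxcr2 1.52-fold, from 574, 669 and 559.5 to 850.4, 1020.5 and 879 scaled reads (log2 fold change 0.61 ± 0.099, adjusted p = 0.00225), with no overlap between groups. With all 36 libraries in 1 fit, whose spread includes the 4 h groups, the adjusted p was 0.440. MMF gave 836, 907 and 777, also above every LPS library, and missed the threshold (log2 fold change 0.49 ± 0.095, adjusted p = 0.611), which it passed by DESeq2 (adjusted p = 0.0231). In the blocked fit, which the paired libraries at 24 h allow, Cxcr2 with MMF was called at the same size (adjusted p = 5.75e-05), as were falls of Cx3cr1 (-0.49 on the log2 scale, adjusted p = 0.0168) and Ccr2 (-1.52, adjusted p = 0.0450), 3 of 6 members in place of 0, where the blocked fit called 1.78% of all genes. Cxcr2 was not called between DMF and MMF (log2 fold change 0.12 ± 0.090, adjusted p = 0.360, 95% interval -0.079 to 0.32).

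Ccr1 rose 1.57-fold with DMF at 24 h, from 258, 393 and 332 to 399, 619 and 528 scaled reads (log2 fold change 0.65 ± 0.18, adjusted p = 0.0225). This call was lost without DMF replicate 2 or 3 or LPS replicate 1 or 3 (adjusted p from 0.0635 to 0.0843) or with all 36 libraries in 1 fit (0.0954). With MMF the libraries were at 249.9, 312 and 226, and DMF was 1.94-fold higher than MMF (log2 fold change 0.96 ± 0.16, adjusted p = 0.00439, 95% interval 0.59 to 1.33), the only member of 5 called between these esters at 24 h (21.5% of all genes). DMF is the diester of fumaric acid with methanol and MMF the corresponding monoester. The intervals of the other 4 were -0.60 to 0.48 for Cx3cr1, -0.31 to 0.50 for Cxcr4, -0.29 to 0.43 for Ccrl2 and -0.079 to 0.32 for Cxcr2 on the log2 scale. Cx3cr1 with DMF at 24 h held 192, 199 and 179 (log2 fold change -0.54 ± 0.21, adjusted p = 0.0777 against LPS), and passed with the replicate block (adjusted p = 0.0230) or without LPS replicate 1 (adjusted p = 0.00270), and by DESeq2 (0.0172). Cxcr4 and Ccrl2 at 24 h stood at 186 ± 22.4 and 317 ± 54.1 with DMF and at 177 ± 47.8 and 304 ± 63.3 with MMF, not called against 160.4 ± 52.5 and 274 ± 55.2 with LPS, except that Cxcr4 with DMF was called without LPS replicate 2 (adjusted p = 0.0385).

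**Figure D3:**
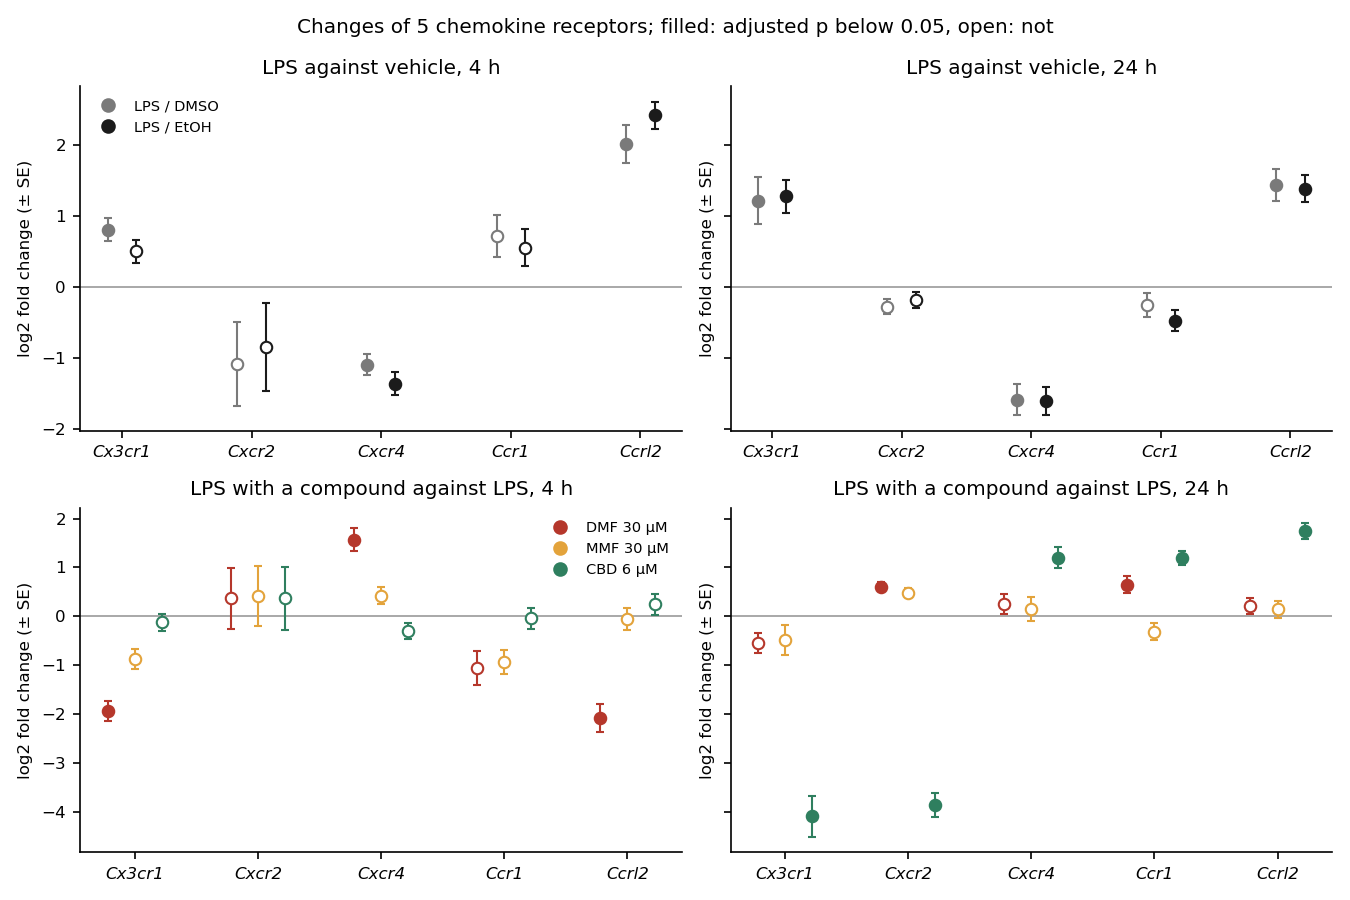
Log2 fold changes (y axis, ± SE of limma) of 5 receptors (x axis): LPS over each vehicle in the upper panels, LPS with DMF, MMF or CBD over LPS alone in the lower ones, at 4 h (left) and 24 h (right). Filled circles passed an adjusted p of 0.05 and open circles did not. At 4 h Ccrl2 stood at -2.07 with DMF, and at 24 h CBD had Cx3cr1 at -4.09 and Cxcr2 at -3.86.

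Cells with LPS and a drug were also set against the vehicle of that drug, where LPS and the drug change together. Against DMSO at 4 h, DMF left 1 of 5 members lower and none higher (23.5% of all genes called), and MMF 1 higher and 1 lower of 5 (8.22% of all). With CBD against EtOH at 4 h, 1 of 5 was higher and 1 lower (13.6% of all), which were Ccrl2 (6.40-fold, adjusted p = 3.83e-05) and Cxcr4 (log2 fold change -1.67, adjusted p = 0.000183). At 24 h, DMF left 2 higher and 1 lower of 5 against DMSO (40.2% of all), MMF 1 higher and 2 lower of 5 (22.4% of all), and CBD 2 higher and 3 lower of 6 against EtOH (50.5% of all). Ccrl2 was the member called higher in 5 of these 6 comparisons, the exception being DMF at 4 h, and its rise over EtOH with LPS and CBD at 24 h was 8.74-fold (log2 fold change 3.13 ± 0.17, adjusted p = 1.42e-06). Cxcr2 with DMF exceeded DMSO at 24 h (log2 fold change 0.34 ± 0.094, adjusted p = 0.0152), a call lost without DMF replicate 2 (adjusted p = 0.0565) or DMSO replicate 6 (0.0644) or with all 36 libraries in 1 fit (0.683). Cx3cr1 and Ccr1 with DMF missed the threshold against DMSO at 24 h (log2 fold change 0.69 ± 0.29, adjusted p = 0.0823, and log2 fold change 0.41 ± 0.17, adjusted p = 0.0784), and passed it without DMSO replicate 6 (0.0421 for Cx3cr1) and without DMF replicate 1 (0.010 for Ccr1). Ccr1 with MMF was below DMSO at 24 h (log2 fold change -0.55 ± 0.16, adjusted p = 0.0321), a call lost without MMF replicate 1 or 3 or DMSO replicate 5 or 6 (adjusted p from 0.0905 to 0.127) or with all 36 libraries in 1 fit (0.170). The vehicles themselves did not separate any of 5 members by limma, at 4 h (0% of all genes called, with 1 of 5 at an unadjusted p under 0.05) or at 24 h (0.00854% of all, with 0 of 5 at an unadjusted p under 0.05), and edgeR, DESeq2 and the replicate block called 0 as well. Over all genes the vehicles did differ at 4 h in the blocked fit, which called 7.65% (0.171% at 24 h), against 0.663% by DESeq2.

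Every group at 24 h was compared with the same treatment at 4 h, which the labels do not separate from time in culture and time in low serum. Cxcr2 rose with time in 5 of the 6 treatments and fell with CBD. The rise was 3.01-fold in DMSO (3 members up, 0 down of 5, 51.6% of all genes called), 3.32-fold in EtOH (4 up, 1 down of 6, 58.6%), 5.27-fold in LPS (1 up, 0 down of 6, 48.9%), 6.21-fold in LPS with DMF (4 up, 1 down of 5, 58.8%) and 5.56-fold in LPS with MMF (2 up, 0 down of 5, 49.5%). Leaving out replicate 2 at 4 h, the high library, keeps replicate 2 at 24 h, also the highest of its group, and so favours a larger rise. In those refits the rise of Cxcr2 was 8.37-fold in LPS and 9.45-fold in LPS with DMF. In LPS with CBD it fell from 75.6, 322 and 123 to 41.1, 59.4 and 26.4 scaled reads (log2 fold change -1.83 ± 0.47, adjusted p = 0.00669), and there 3 members were up and 2 down of 5 (63.2% of all genes). Ccr1 rose with time in 5 treatments, LPS alone being the exception, by 1.92-fold in LPS with MMF to 4.05-fold in LPS with DMF. Cxcr4 rose in both vehicles (1.72-fold in DMSO, 1.44-fold in EtOH) and in LPS with CBD (3.47-fold, log2 fold change 1.79 ± 0.15, adjusted p = 5.68e-06), and fell in LPS with DMF (log2 fold change -1.03 ± 0.22, adjusted p = 0.00231). Cx3cr1 fell in EtOH (log2 fold change -0.79 ± 0.16, adjusted p = 0.00163, and adjusted p = 0.0522 with all 36 libraries in 1 fit) and in LPS with CBD (log2 fold change -3.97 ± 0.38, adjusted p = 1.57e-05), and rose in LPS with DMF (log2 fold change 1.38 ± 0.18, adjusted p = 0.000109). Ccrl2 rose in EtOH (log2 fold change 0.63 ± 0.18, adjusted p = 0.0125, lost without EtOH replicate 6 at 24 h, adjusted p = 0.0589), in LPS with DMF (log2 fold change 1.88 ± 0.25, adjusted p = 0.000124) and in LPS with CBD (log2 fold change 1.09 ± 0.17, adjusted p = 0.000337), and it was called lower in LPS with MMF once replicate 1 at 4 h was left out (adjusted p = 0.0475). In LPS alone, where same-numbered libraries deviated together, the replicate block added a rise of Ccr1 (adjusted p = 0.0386) and a fall of Ccrl2 (adjusted p = 0.0113), 3 of 6 members in place of 1, near the 52.2% of all genes called in that fit.

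Whether a drug effect differed between 4 h and 24 h was tested as an interaction of drug and time, over the 12 libraries of LPS with and without the drug. For DMF, 3 of 6 members had a higher and 1 a lower effect at 24 h (16.4% of all genes called), for CBD 3 higher and 2 lower of 6 (31.9% of all), and for MMF none by limma (0% of all, with 0 of 6 at an unadjusted p under 0.05, and 0 by edgeR or DESeq2). With DMF the difference was 2.28 ± 0.35 (log2, SE) for Ccrl2, which fell at 4 h and was not called at 24 h. It was 1.70 ± 0.43 for Ccr1, 1.38 ± 0.32 for Cx3cr1 and -1.32 ± 0.35 for Cxcr4, the last with an adjusted p of 0.0507 without DMF replicate 3 at 4 h. With CBD it was -4.22 ± 0.76 for Cxcr2 and -3.95 ± 0.51 for Cx3cr1, whose effects at 4 h were not called. Without LPS replicate 2 at 4 h the value for Cxcr2 was -4.88. That refit kept the high CBD replicate 2 at 4 h, which favours a larger difference.

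The pattern of each well-measured member over the 12 group means was compared with that of 10095 other genes, as Pearson's r of log2 levels, given as a description. The genes most like Ccrl2 were Xaf1 (r = 0.991) and Stat2 (r = 0.986), which belong to the response to interferons. Those most like Ccr1 were Metrnl (r = 0.982) and Tmem116 (r = 0.964). Cxcr2 was most like Rin3 (r = 0.975) and Notch4 (r = 0.972), and Cx3cr1 Il18rap (r = 0.947) and Foxp1 (r = 0.928). Cxcr4 was most like Phf3 (r = 0.943) and Tnrc6c (r = 0.903). Among the members themselves, r was 0.504 for Cx3cr1 and Cxcr2, 0.475 for Ccr1 and Ccrl2, -0.605 for Cx3cr1 and Cxcr4, and -0.571 for Cxcr4 and Ccrl2. The best matches above were picked from 10095 genes, so the few pairs of members cannot be set against them. The 12 means share libraries of 1 line and fall into 4 h and 24 h groups, which these correlations do not separate.

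Of 17 ligands of the members, 12 were measured well enough to test with LPS against DMSO at 4 h and 6 rose (median log2 fold change 1.58, 14.1% of all genes called). Over all genes the median lay between -0.0167 and 0.00918 in the 30 comparisons. The 6 with the most scaled reads were Mif, Cxcl2, Ccl2, Ccl3, Ccl9 and Cxcl3. Cxcl2 and Cxcl3, ligands of Cxcr2, went from 173 ± 66.9 and 163 ± 37.5 scaled reads in DMSO to 8532 ± 1219 and 1602 ± 757 with LPS at 4 h (log2 fold change 5.67 ± 0.23, adjusted p = 4.13e-06, and log2 fold change 3.21 ± 0.30, adjusted p = 0.000339). With DMF at 24 h both rose further over LPS (log2 fold change 1.58 ± 0.22, adjusted p = 0.00101, and log2 fold change 1.64 ± 0.20, adjusted p = 0.000557), in the comparison in which Cxcr2 also rose. With CBD at 24 h both also rose (log2 fold change 1.23 ± 0.16, adjusted p = 0.000265, and log2 fold change 0.57 ± 0.14, adjusted p = 0.00709), where Cxcr2 fell to 42.3. Ccl2, the ligand of the scarce Ccr2, held 4766 ± 1378 with LPS at 4 h and 1173 ± 454 with DMF (log2 fold change -2.05 ± 0.27, adjusted p = 0.00157), and 14587 ± 2227 with CBD at 24 h against 3037 ± 719 with LPS (log2 fold change 2.29 ± 0.17, adjusted p = 1.60e-05). Ccl3 and Ccl9 bind Ccr1. Ccl3 rose with CBD at 24 h (log2 fold change 1.59 ± 0.12, adjusted p = 1.17e-05), as Ccr1 did, whereas Ccl9 was not called there (log2 fold change -0.19 ± 0.14, adjusted p = 0.304) and at 4 h fell with DMF (log2 fold change -1.54 ± 0.13, adjusted p = 0.000201). Mif, which binds Cxcr4 and Cxcr2, held 11153 ± 1072 with LPS at 24 h and 7935 ± 993 with CBD (log2 fold change -0.49 ± 0.11, adjusted p = 0.00525), while Cxcl12, 1 of the 17, was not analysed here. Cx3cl1, the ligand of Cx3cr1, lies outside those 6 and was added after its values were seen. It held 411 ± 19.0 with LPS and 104 ± 9.91 with CBD at 24 h (log2 fold change -1.97 ± 0.12, adjusted p = 4.79e-06).

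Counts over the ligand list with a drug against LPS were 0 higher and 4 lower of 11 tested for DMF (11.1% of all genes called), 0 higher and 0 lower of 12 tested for MMF (0.122%) and 0 higher and 0 lower of 12 tested for CBD (0.00875%) at 4 h, where 3 with MMF and 0 with CBD had an unadjusted p under 0.05. At 24 h they were 7 higher and 1 lower of 13 tested for DMF (25.1% of all genes), 0 higher and 0 lower of 13 tested for MMF (0%) and 7 higher and 2 lower of 13 tested for CBD (48.7% of all genes), where 3 with MMF had an unadjusted p under 0.05. No share of all genes at that unadjusted threshold is given here, at either time. Of 19 other chemokine and chemerin receptors, 5 were tested with CBD at 24 h, of which 0 rose and 2 fell (48.7% of all genes called). With DMF 0 rose and 1 fell of 3 at 4 h (11.1% of all genes), and 1 rose and 0 fell of 5 at 24 h (25.1% of all genes). Cxcr3 averaged 145 ± 36.5 scaled reads with LPS at 24 h. It fell with CBD, where the mean was 71.6 ± 15.8 (log2 fold change -1.0 ± 0.23, adjusted p = 0.00597), whereas it rose with DMF, at a mean of 238 ± 48.7 (log2 fold change 0.72 ± 0.20, adjusted p = 0.0280), while Ccr10 did not pass the test with any drug against LPS. Cmklr1, the signalling receptor of chemerin, averaged 26.1 scaled reads and fell with CBD at 24 h (log2 fold change -0.84 ± 0.22, adjusted p = 0.0123), where Ccrl2 rose. The mitochondrial share of reads, given above, was lower with CBD at 24 h for these lists too, and its part was not tested. Gpr182 and Cxcr5 averaged 24.8 and 9.54 scaled reads.

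Downstream of the receptors, 20 genes of G protein signalling, migration and desensitization were followed. With CBD at 24 h 7 rose and 8 fell of 18 tested (median log2 fold change -0.27, 48.7% of all genes called). With DMF 0 rose and 7 fell of 17 at 4 h (11.1% of all genes), and 3 rose and 3 fell of 18 at 24 h (25.1% of all genes). With MMF 0 were called at either time by limma, and 4 at 4 h and 1 at 24 h had an unadjusted p under 0.05. No share of all genes at that unadjusted threshold is given here. The part of the lower mitochondrial share in the CBD libraries at 24 h was not tested here either. The receptor kinase Grk2 held 9451 ± 326 scaled reads with LPS at 24 h and 5828 ± 541 with CBD (log2 fold change -0.70 ± 0.087, adjusted p = 0.000203). Arrb2, the arrestin that ends receptor signalling, went from 5882 ± 694 to 3209 ± 549.8 (log2 fold change -0.88 ± 0.13, adjusted p = 0.000447). Gnai2, an inhibitory G protein subunit, also fell (log2 fold change -0.40 ± 0.12, adjusted p = 0.0213), whereas the migration genes Dock2 and Vav1 rose slightly (log2 fold change 0.24 ± 0.069, adjusted p = 0.0159, and log2 fold change 0.29 ± 0.074, adjusted p = 0.00971). Rac2 was raised by LPS at 24 h (log2 fold change 0.92 ± 0.092, adjusted p = 4.95e-05 against DMSO) and not called with CBD (log2 fold change -0.15 ± 0.11, adjusted p = 0.317).

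**Figure D4:**
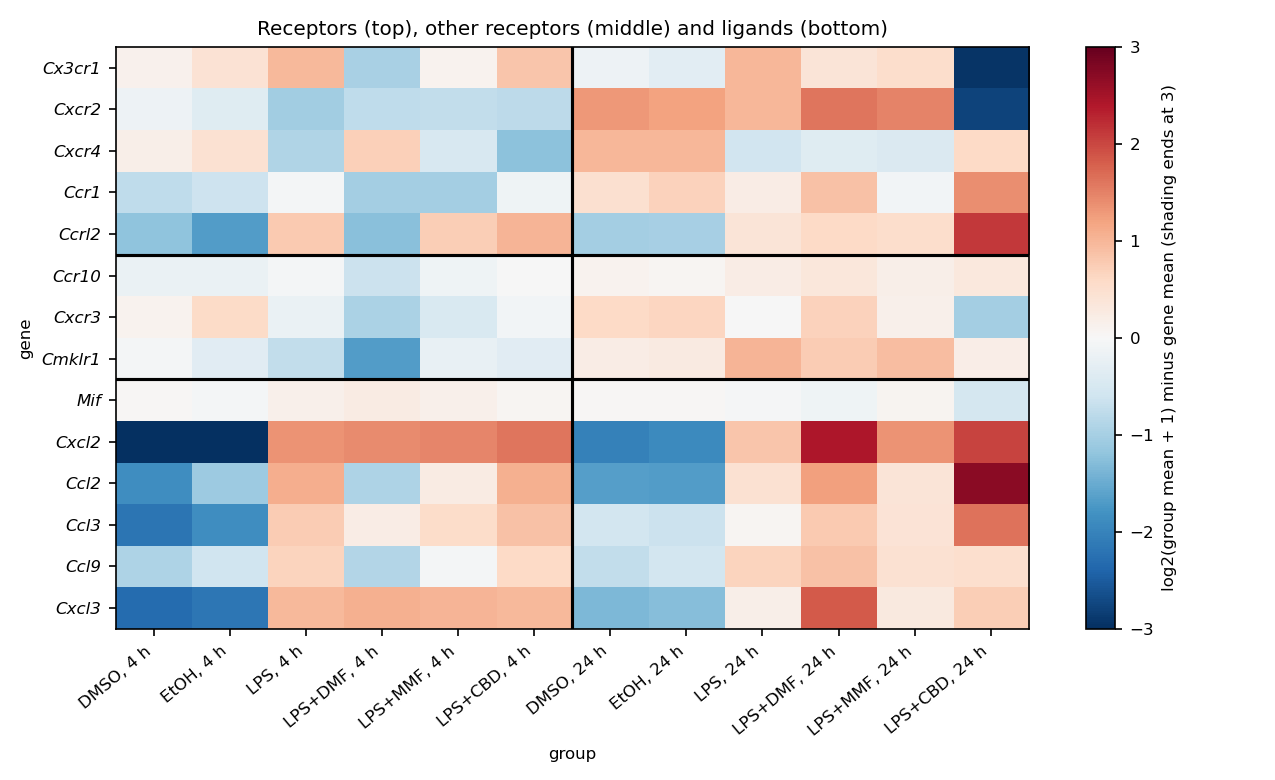
Group means of 5 receptors (top), the 3 other receptors (middle) and 6 ligands (bottom) with the most scaled reads among those reported, genes on the y axis and the 12 groups on the x axis. Shading is log2 of the mean + 1 minus the mean of that gene over the groups, red above and blue below, with the shading ending at 3. Ccrl2, Ccr1, Ccl2 and Ccl3 have their highest mean with LPS and CBD at 24 h, and Cx3cr1 and Cxcr2 their lowest.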

How the data were processed

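RNA-seq of poly(A) RNA was measured in 36 BV-2 libraries (12 groups of 3, experiments repeated 3 times per the labels, so p-values measure the spread between these libraries). The authors trimmed reads (FastQC 0.12.1, cutadapt 4.4, Trimmomatic 0.39), aligned them with HISAT2 2.2.1 to GRCm39, counted them per Ensembl gene with HTSeq 2.0.3 and divided counts by DESeq2 1.40.2 size factors (R 4.3.1). The strand setting is not given in the sources used here. The deposited values are thus a signal, normalized counts in 30 tables of 6 libraries each, which leave out genes without a read in their 6 libraries. The tables also hold the authors' own fold changes and p-values, which were not used.

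The size of 1 read was read from the low values in 155 of 180 library columns, where 100% of 2305864 values above 0 were whole reads within 0.01. The other 25 columns did not give it, and reads recovered for the same library elsewhere were used. Those reads matched 100% of the values of every column within 0.01 (size factors 0.7496 to 1.5321). Totals ran from 14110424 to 26676607 reads a library. Levels are recovered reads over 1 median-of-ratios factor per library across all 36. Tests use the scaling of each deposited table: limma 3.58.1 (trend, R 4.3.3) on log2(normalized count + 1), for genes with at least 10 in at least 3 of 6 libraries, with Benjamini-Hochberg adjustment over all genes tested (11371 to 11858) and a threshold of 0.05, so fold changes are on the log2(value + 1) scale. Interactions were fitted with limma over 12 libraries. RPKM uses the union of GENCODE exons. The procedure was tested on simulated data. The members, lists and motifs were chosen with earlier results of these data known. Named genes were the 7 members, at most 6 genes of each list by mean level, and the 2 genes most like each member with a mean of at least 50 scaled reads. 1 receptor of the list is not reported here. Python 3.11.15, pandas 2.3.3 and numpy 2.4.6 were used.

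Alternatives were a pseudocount of 5, no filter, edgeR 4.0.16 and DESeq2 1.42.0 on the recovered reads, the replicate number as a block, all 36 libraries in 1 fit, each library left out, levels by TMM-scaled CPM and, chosen after seeing the data, replicates 2 and 5 left out. Same-numbered libraries of a comparison were taken as paired where their deviations from the group means correlated above 0.1 in all 3 pairs (genes with a mean of at least 50). This held for DMF against LPS (r from 0.169) and CBD against LPS (0.242) at 4 h, for DMF, MMF and CBD against LPS (0.225, 0.332 and 0.126) and DMF against MMF (0.202) at 24 h, for the vehicles (0.305 at 4 h, 0.184 at 24 h), and for 24 h against 4 h in LPS (0.151) and LPS with MMF (0.141). No pair of libraries agreed within sampling noise.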

Additional observations from a re-analysis of the deposited data

Results flagged for a closer look

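The effect of a drug on a receptor differed between 24 h and 4 h in 9 cases, by the interaction of drug and time in limma. For DMF against LPS, the log2 fold change at 24 h minus that at 4 h was 1.38 for Cx3cr1, -1.32 for Cxcr4, 1.70 for Ccr1 and 2.28 for Ccrl2. For CBD against LPS it was -3.95 for Cx3cr1, -4.22 for Cxcr2, 1.51 for Cxcr4, 1.24 for Ccr1 and 1.5 for Ccrl2. At 4 h none of these 5 receptors was called with CBD. What the differences rest on was not tested.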

How the results depend on the processing

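No receptor result that was called, in the main fit or in an alternative, reversed its direction between the 2. Changes of sign where neither fit called the result were not counted. Of 164 member results, all kept their call with a pseudocount of 5, and 163 without the filter, 162 by edgeR, 155 by DESeq2, 155 with all libraries in 1 fit and 149 without replicates 2 and 5. Counts of members called are given where an alternative moved them by more than 1.5 times or from 0. By DESeq2 they became 2 for MMF against LPS at 4 h (0.402% of all genes called), 2 for DMF against DMSO at 4 h (24.6%) and 1 for MMF against LPS at 24 h (0.121%). With all libraries in 1 fit they became 0 for DMF against LPS at 24 h (28.4% of all genes called). Without replicates 2 and 5, a choice made after seeing the data, they became 5 and 4 for LPS against DMSO and EtOH at 4 h, 3 and 1 for DMF and MMF against DMSO at 4 h, 1 for MMF against LPS at 24 h, 2 for 24 h against 4 h in LPS and 1 for the change of the LPS effect with time. The share of all genes called without replicates 2 and 5 is not given here, so these counts cannot be set against it. There Cxcr4 lost its call for MMF against DMSO at 4 h and for EtOH over time, and Cx3cr1 for LPS against DMSO at 24 h, with only 2 libraries a group.

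With the replicate block, no call was lost and 11 of 109 results gained one. By the same rule, the members called became 2 for MMF against LPS at 4 h (Cx3cr1 and Ccr1, lowest r 0.0809, 1.57% of all genes) and 3 for MMF against LPS at 24 h (1.78% of all genes). They became 3 for 24 h against 4 h in LPS (52.2% of all genes) and 2 for the change of the LPS effect with time (Ccr1 and Ccrl2, 14.4% of all genes). That last fit also blocks DMSO over time, where the lowest r was 0.0079. The numbers did not pair the libraries for DMF against MMF at 4 h (lowest r 0.0418) or for 24 h against 4 h in DMSO (0.0079), EtOH (0.0366), LPS with DMF (0.027) and LPS with CBD (0.0345), where the block changed no count of calls. No paired analysis was possible for LPS, or LPS with a drug, against a vehicle because these groups share no replicate number.

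Leaving out 1 library at a time removed 33 calls and added 13 over 1110 refitted results. The members called ranged from 0 to 1 for MMF against LPS at 4 h (0.00882 to 0.556% of all genes called). At 4 h they ranged from 1 to 3 for DMF against MMF (2.84 to 10.9%) and 1 to 3 for DMF against DMSO (12.3 to 23.7%). At 24 h they ranged from 3 to 4 for LPS against EtOH (12.1 to 21.4%), where all libraries gave 5. For DMF against LPS at 24 h they ranged from 1 to 3 (11.5 to 28.8%). For the change of the LPS effect with time they ranged from 0 to 1, with no share given here. By TMM-scaled CPM, the ratio of the highest to the lowest group mean moved by less than its replicate spread for each of 6 members. Depth limits Ccr2 and Ackr3, and 3 libraries a group limit Cxcr2 at 4 h.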
